A study of Homo sapiens with 6 samples.

Results

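The genes described here are 38 genes of mitosis and of the G2 phase that leads into it, measured in the human colorectal cancer line SW480 and in M5, a subpopulation of it that was selected in vivo for a raised ability to form liver metastases. They were chosen by symbol, as the probe sets whose only gene symbol in the array's annotation is one of the 38 names. All 38 were found, on 72 probe sets, among 19775 genes with such a probe set on the array, and 14243 genes including all 38 passed the filter on low signals. Each population was measured on 3 Affymetrix arrays, which the labels call biological replicates. Both were grown in the same serum-supplemented medium without a treatment that differed, and neither the number of cells that founded M5 nor the number of animals used is given in the labels.

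Mitosis is driven by CDK1, a kinase that becomes active once bound to cyclin A or cyclin B. The genes for the cyclins, the mitotic kinases, the kinetochore, the spindle and the machinery that destroys cyclin B are transcribed together late in the cell cycle, under FOXM1 and MYBL2 (B-Myb), and are held down in resting cells by the DREAM complex. In bulk RNA their level follows the share of cells in G2 and mitosis as well as the RNA per cell, and these cannot be told apart here.

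The control regions of these genes are known for a short element, the cell cycle genes homology region (CHR), and for CCAAT boxes upstream of it. RefSeq promoter sequences (GRCh38.p14, 250 bases before to 50 bases after the start site) were matched by symbol for 31 of the 38 members, and AURKA, BIRC5, FOXM1, TPX2, TROAP, TTK and UBE2C had no match. A CHR, searched as TTTGAA or TTCGAA on both strands, was present in 21 of the 31 (67.7%), against 16.4% of all 34943 promoters of the same length. CCAAT, searched on both strands, was present in 24 of 31 (77.4%), against 34.6% of all promoters, and both motifs were in 18 of 31 (58.1%), against 6.4%. These matches describe letters and not bound sites. Only the first listed promoter of each member was searched, and no other form of the CHR was searched for. A member without a match is therefore not shown to lack a CHR. A TTTGAA of the kind described is at position -18 in CENPA, at -29 in PLK1 and at +14 in NUSAP1, counted from the start site to the motif's first base. The stretches below run from 150 bases before to 30 bases after the start site and belong to the members with a RefSeq match whose SW480 and M5 arrays did not overlap, and to PLK1 as a well-known CHR gene. They are printed 5′ to 3′ in the direction of transcription, and capitals mark CHR and CCAAT matches on either strand.
CENPA (chr2:26785906-26786085, + strand): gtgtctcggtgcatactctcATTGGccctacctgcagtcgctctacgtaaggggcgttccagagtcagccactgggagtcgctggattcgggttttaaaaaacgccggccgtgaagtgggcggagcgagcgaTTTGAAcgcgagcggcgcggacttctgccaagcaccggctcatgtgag
NUSAP1 (chr15:41332731-41332910, + strand): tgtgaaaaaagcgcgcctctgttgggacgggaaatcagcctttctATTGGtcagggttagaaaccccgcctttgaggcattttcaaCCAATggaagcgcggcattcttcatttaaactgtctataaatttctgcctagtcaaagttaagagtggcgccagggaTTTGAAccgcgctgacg
NEK2 (chr1:211675592-211675771, - strand): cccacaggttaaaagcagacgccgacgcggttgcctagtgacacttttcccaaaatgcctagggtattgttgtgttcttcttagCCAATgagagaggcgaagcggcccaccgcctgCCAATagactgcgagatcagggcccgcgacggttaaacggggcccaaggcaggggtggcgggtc
PTTG1 (chr5:160421705-160421884, + strand): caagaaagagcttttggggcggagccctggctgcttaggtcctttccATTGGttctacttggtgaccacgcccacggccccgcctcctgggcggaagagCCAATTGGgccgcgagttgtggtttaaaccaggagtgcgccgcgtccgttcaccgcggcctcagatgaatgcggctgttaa
KIF20A (chr5:138178962-138179141, + strand): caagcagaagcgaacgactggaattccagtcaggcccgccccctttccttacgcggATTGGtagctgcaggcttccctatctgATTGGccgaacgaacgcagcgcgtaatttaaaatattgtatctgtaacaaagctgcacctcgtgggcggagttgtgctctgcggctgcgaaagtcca
PLK1 (chr16:23678739-23678918, + strand): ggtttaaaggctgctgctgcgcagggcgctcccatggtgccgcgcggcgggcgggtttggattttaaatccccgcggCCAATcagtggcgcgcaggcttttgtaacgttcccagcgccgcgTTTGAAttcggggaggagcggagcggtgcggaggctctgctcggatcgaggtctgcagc

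Signals are given after quantile normalisation on a linear scale, and fold changes are limma estimates on log2(signal + 1.7), M5 minus SW480, so a positive value means a higher signal in M5. A gene is represented by its brightest probe set with 1 symbol. The arrays differed in overall brightness before scaling, with 2% trimmed means of 20.8 to 86.6, and SW480 replicate 1 and M5 replicate 1 were the dimmest of their groups (the dimmer pair). M5 replicates 2 and 3 correlated at 0.994 over the 3823 probe sets in the top 7% by mean log2 signal, against 0.897 to 0.958 for other pairs of arrays, and enter the means and SDs below as a single sample, so that n = 2 for M5. The limma fold changes, SEs, intervals and p-values come from a fit to all 6 arrays, which counts those replicates separately. With them averaged in the fit, 0 members were called, the median fold change was 0.2, 29 members were positive, and the lowest adjusted p among the members in limma was 0.849 (NUSAP1), with 0.878 for CENPA and 0.873 for TROAP. Over the same 3823 probe sets, SW480 replicate 1 correlated at 0.955 with M5 replicate 1 and at 0.911 with each of SW480 replicates 2 and 3. An 18S ribosomal RNA control was high on SW480 replicates 1 and 2 and M5 replicate 1 (2824 to 4163) and low on the others (96.3 to 234). Of 11 listed colorectal epithelial markers, EPCAM and KRT18 were bright on all 6 arrays (EPCAM 2176 to 2923, KRT18 4022 to 5185). KRT19 read 955 to 2956, KRT8 846 to 1897 and CDH1 262 to 390. The others were dimmer: KRT20, LGALS4, VIL1 and CEACAM5 read at most 66.4, and the intestinal markers CDX1 and CDX2 were at 13.4 or below. Of markers of other cell types, all 9 listed for fibroblasts had a probe set, with summed signals of 237 to 376 in SW480 and 184 to 235 in M5. The 6 endothelial markers summed to 20.8 to 47.4 and 27.2 to 46.0, and the 9 hepatocyte markers to 117 to 384 and 108 to 445. The 6 leukocyte markers with a probe set, of 8 listed, summed to 18.9 to 97.7 in SW480 and 84.3 to 195 in M5, where most of the sum was LYZ, which was brightest on M5 replicates 2 and 3 (147 and 161). The part of these markers in the differences below was not tested. PTPRC, CD14, VWF and ALB had signals of at most 11.4 on every array. Other markers on the same lists were brighter: TTR, a plasma protein made by the liver, read 5.17, 1.67 and 1.43 in the SW480 replicates and 195.7, 73.1 and 5.68 in those of M5, and SERPINA1 reached 235 on SW480 replicate 1.

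No mitosis gene passed the test between M5 and SW480. Of the 38 members, 0 were higher and 0 lower at a limma adjusted p under 0.05, where 0.0562% of all genes tested were called higher and 0.0421% lower. The lowest adjusted p among the members was 0.305 in limma. At an unadjusted p under 0.05 limma gave 4 members with higher and 0 with lower signals in M5 (TROAP, CENPA, NUSAP1 and NDC80), against backgrounds of 5.43% and 6.12% of all genes. The fold change was positive in 28 of 38 members and negative in 10, while 49.3% of all genes tested had a positive one. The median over the members was 0.21, against -0.01 over all genes, with values from -0.39 (KIF20A) to 1.12 (TROAP). All 3 M5 signals lay above all 3 SW480 signals for 6 members (TROAP, CENPA, NUSAP1, NEK2, PTTG1 and TPX2) and below them for 1 (KIF20A), where the backgrounds were 7.74% and 8.36% of all genes. Most differences were small and positive, and none passed the threshold against the spread between arrays.

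The 6 arrays did not contribute equally to this. With each gene centred on its mean over the arrays, the members' median log2 value was -0.3 on SW480 replicate 1, -0.02 and -0.04 on SW480 replicates 2 and 3, 0 on M5 replicate 1, and 0.17 and 0.12 on M5 replicates 2 and 3. The medians over all genes lay between 0 and 0.05 on every array. SW480 replicate 1 held the lowest signal of 21 of the 38 members, while it held the lowest signal of 20.9% of all genes. M5 replicate 3 held the highest signal of 13 members, against 15.1% of all genes. Without SW480 replicate 1, the median was 0.13 and 24 members had a positive fold change.

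**Figure D1:**
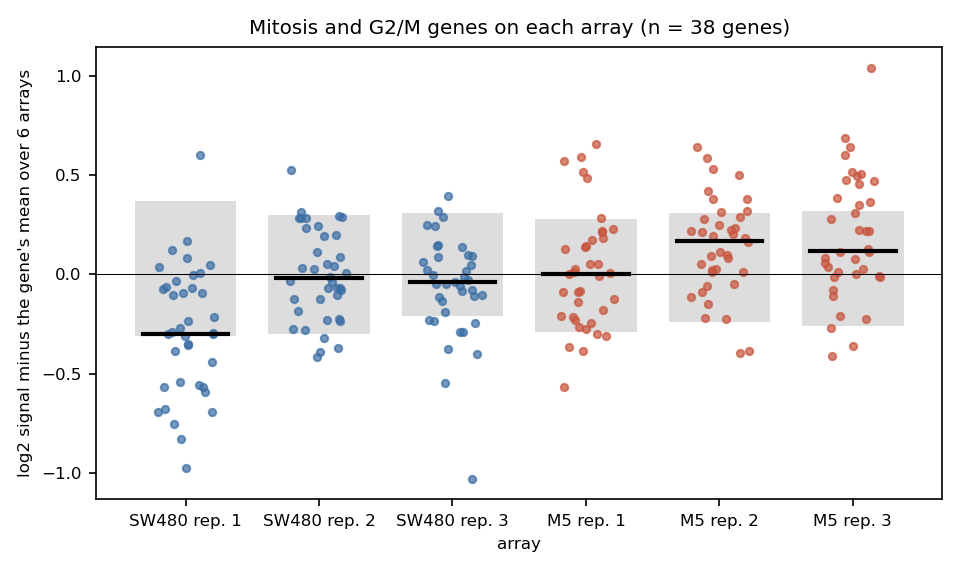
Log2 signal of each of the 38 mitosis and G2/M genes minus its own mean over the 6 arrays (vertical axis), by array (horizontal axis). Each point is a gene, black bars are the members' medians, and grey boxes span the quartiles of all genes tested. The members' median is lowest on SW480 replicate 1 (-0.3) and highest on M5 replicate 2 (0.17).

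Among the 7 genes of cyclins, CDK1 and its regulators, no array groups separated and fold changes lay between -0.21 and 0.22. CDK1, the kinase that drives entry into mitosis, had signals of 1372, 1515 and 1729 on SW480 replicates 1, 2 and 3 and of 1714, 1853 and 1789 on M5 replicates 1, 2 and 3. M5 replicate 1 fell inside the SW480 range, so the groups overlapped, with means of 1539 ± 179.9 (SD, n = 3) for SW480 and 1768 ± 75.5 (SD, n = 2) for M5. The log2 fold change was 0.22 ± 0.15 (SE, 95% interval -0.1 to 0.54, adjusted p = 0.641 in limma). CCNB1, the cyclin B1 partner of CDK1, had signals of 787, 1177 and 926 for SW480 against 1063, 927 and 957 for M5. The M5 values lay wholly inside the SW480 range. Its log2 fold change was 0.05 ± 0.18 (SE, 95% interval -0.35 to 0.44, adjusted p = 0.956 in limma), and a second, dimmer CCNB1 probe set gave -0.23. CCNB2, the gene of cyclin B2, and CCNA2, the gene of cyclin A2, had fold changes of 0.22 and 0.18. CDC25C, the phosphatase that removes the inhibitory phosphates from CDK1, had one of -0.03 (SE 0.32), and a second probe set with signals of 9.03 to 47.4 gave 1.08. The small CDK-binding proteins CKS1B and CKS2 pointed opposite ways, at 0.15 (SE 0.19) and -0.21 (SE 0.15). CKS2 signals were 2128, 2102 and 2451 for SW480 against 2250.3, 1768 and 1761 for M5 (limma adjusted p = 0.666). Only M5 replicates 2 and 3 were below the SW480 arrays for CKS2.

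The transcription factor genes had positive fold changes with overlapping groups. FOXM1, which activates the G2/M genes, had signals of 52.3, 112 and 88.5 for SW480 against 76.6, 102 and 125 for M5, a log2 fold change of 0.3 ± 0.33 (SE, adjusted p = 0.799 in limma). The lowest value was again SW480 replicate 1, and the fold change without that array was 0. FOXM1 rests on 1 probe set, which the array maker marks as sharing sequence with other transcripts. MYBL2, which acts with the MuvB core ahead of FOXM1, had signals of 70.6, 64.0 and 83.4 for SW480 against 78.3, 97.8 and 117 for M5, a log2 fold change of 0.41 ± 0.27 (SE, adjusted p = 0.644 in limma). M5 replicate 1 was below SW480 replicate 3.

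Of 6 genes of mitotic kinases and of the chromosomal passenger complex, 5 had fold changes of 0.34 to 0.53 and AURKA, the centrosome and spindle pole kinase, one of -0.2. NEK2, a kinase of centrosome separation, had signals of 116, 122 and 144 for SW480 against 241, 158 and 162 for M5. All M5 arrays were above all SW480 arrays, with M5 replicate 1 far above the others. Its log2 fold change was 0.53 ± 0.25 (SE, adjusted p = 0.501 in limma), and its other probe set gave 0.27 with groups that overlapped. AURKB, the catalytic kinase of the passenger complex, had signals of 164, 167 and 114 for SW480 against 158, 209.5 and 217 for M5, a log2 fold change of 0.39 ± 0.25 (SE, adjusted p = 0.62 in limma). M5 replicate 1 lay inside the SW480 range. BIRC5 (survivin), a further subunit of that complex, had 0.47 (SE 0.25), with all 4 of its probe sets positive (0.11 to 0.47). PLK1, a kinase of centrosome maturation and mitotic entry, had signals of 82.8, 142 and 112 for SW480 against 95.5, 166 and 170.1 for M5. The groups overlapped, with a log2 fold change of 0.34 ± 0.30 (SE, adjusted p = 0.75 in limma), which was 0.2 with M5 replicates 2 and 3 averaged. TTK (MPS1), the kinase that starts the spindle checkpoint, had one of 0.48 (SE 0.26).

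The 8 kinetochore and checkpoint genes divided evenly, 4 positive and 4 negative. The positive members were CENPA, the histone H3 variant that marks the centromere, NDC80 and NUF2, which together form the microtubule-binding arm of the NDC80 complex, and MAD2L1 (MAD2), the checkpoint inhibitor of CDC20. CENPA signals were 36.9, 50 and 45.6 for SW480 against 91.1, 74.8 and 87.1 for M5, with means of 44.2 ± 6.66 (SD, n = 3) and 86.0 ± 7.18 (SD, n = 2). The groups were separated by more than either spread. Its log2 fold change was 0.91 ± 0.28 (SE, 95% interval 0.3 to 1.52, adjusted p = 0.342 in limma). It rests on 1 probe set, which the array maker marks as sharing sequence with other transcripts. NDC80 signals were 143, 196 and 218 for SW480 against 192, 361 and 351 for M5, a log2 fold change of 0.66 ± 0.28 (SE, adjusted p = 0.467 in limma). M5 replicates 2 and 3 were above every SW480 array, and M5 replicate 1 was not. NUF2 had 0.43 (SE 0.23), and the 3 probe sets of MAD2L1 gave 0.43 to 0.73. Signals of MAD2L1 varied widely inside both groups, at 722, 1058 and 1603 for SW480 against 982, 1858 and 2009.6 for M5. M5 replicate 1 lay below SW480 replicates 2 and 3.

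The negative kinetochore and checkpoint members were BUB1 (-0.04), CENPE (-0.12), CENPF (-0.12) and BUB1B (-0.21). BUB1B (BUBR1), a subunit of the mitotic checkpoint complex, had signals of 356, 459 and 398 for SW480 against 526, 286 and 281 for M5. Its highest and its lowest arrays were both M5 arrays, and the group means were 404 ± 51.3 (SD, n = 3) and 405 ± 171 (SD, n = 2). The log2 fold change over all 6 arrays was -0.21 ± 0.26 (SE, adjusted p = 0.828 in limma). It was -0.06 with M5 replicates 2 and 3 averaged, so its sign stayed and its size depended on counting both of those arrays. CENPE, a kinetochore motor, and CENPF, a large kinetochore protein, had SEs of 0.23 and 0.18. BUB1, the kinase that BUB1B resembles, had an SE of 0.21, and 2 of its 4 kept probe sets were positive.

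Of 10 spindle and cytokinesis genes, 9 had positive fold changes. NUSAP1, a protein that bundles spindle microtubules at chromatin, had signals of 441, 509 and 505 for SW480 against 904, 690 and 654 for M5, with means of 485 ± 37.95 (SD, n = 3) and 788 ± 164 (SD, n = 2). All M5 arrays lay above all SW480 arrays. Its log2 fold change was 0.61 ± 0.18 (SE, 95% interval 0.21 to 1.02, adjusted p = 0.334 in limma), and its second probe set gave 0.6 with groups that also did not overlap. The direction and size of NUSAP1 were therefore shared by both probe sets. TROAP (tastin), a protein needed for spindle assembly, had signals of 58.7, 87.2 and 95.4 for SW480 against 122, 177 and 243 for M5, a log2 fold change of 1.12 ± 0.31 (SE, 95% interval 0.45 to 1.8, adjusted p = 0.305 in limma). Its second probe set, with signals of 75.97, 80.2 and 59.1 for SW480 against 85.1, 78.5 and 55.9 for M5, gave 0.02 (SE 0.29). The large TROAP value thus came from 1 of its probe sets.

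TPX2, which targets AURKA to the spindle, had signals of 533, 503 and 453 for SW480 against 605, 563 and 545 for M5, a log2 fold change of 0.2 ± 0.17 (SE, adjusted p = 0.725 in limma). Its groups did not overlap, by a narrow margin. The other positive members of this role were the motors KIF11 (0.42), KIF23 (0.22) and KIF2C (0.11), the midzone protein PRC1 (0.19) and the spindle proteins DLGAP5 (0.15) and HMMR (0.13), all with overlapping groups. KIF20A, a kinesin of cytokinesis, was the exception in this role, with signals of 195, 266 and 180.5 for SW480 against 174, 157 and 152 for M5. All M5 arrays lay below all SW480 arrays. Its log2 fold change was -0.39 ± 0.23 (SE, 95% interval -0.89 to 0.11, adjusted p = 0.6 in limma).

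In the machinery of anaphase, CDC20, the activator of the anaphase-promoting complex, had signals of 542, 580 and 584 for SW480 against 566, 548 and 577 for M5. It varied little over the arrays, with group means of 569 ± 23.2 (SD, n = 3) and 564 ± 2.72 (SD, n = 2). Its log2 fold change was -0.01 ± 0.16 (SE, 95% interval -0.37 to 0.34, adjusted p = 0.987 in limma). PTTG1 (securin), which that complex destroys to release separase, had signals of 1318, 1311 and 1197 for SW480 against 1434, 1598 and 1640.1 for M5. The groups did not overlap, and the log2 fold change was 0.29 ± 0.14 (SE, adjusted p = 0.53 in limma). The PTTG1 probe set is marked as sharing sequence with other transcripts, and PTTG1 has near-identical copies in the genome, so its value is uncertain as to the copy. UBE2C, the ubiquitin-conjugating enzyme of the complex, had a log2 fold change of 0.41 (SE 0.33). Its signals of 1190.5, 691 and 383 on SW480 replicates 1, 2 and 3 spanned those of the M5 arrays, 1122, 838 and 785, and made it one of the members that were highest on SW480 replicate 1.

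The remaining members act on chromosome structure. MKI67, the gene of the proliferation antigen Ki-67 that coats mitotic chromosomes, had signals of 364, 320 and 258 for SW480 against 389, 357 and 337 for M5, a log2 fold change of 0.21 ± 0.20 (SE, adjusted p = 0.761 in limma). Its groups overlapped, and its 4 probe sets gave -0.29, -0.06, 0.06 and 0.21, so they did not share a direction. TOP2A, the topoisomerase that untangles sister chromatids, had signals of 330, 367 and 356 for SW480 against 376, 243 and 277 for M5, a log2 fold change of -0.25 ± 0.21 (SE, adjusted p = 0.727 in limma). Its other kept probe set gave 0.08 (SE 0.23). As with BUB1B, TOP2A was highest on M5 replicate 1 and lowest on M5 replicates 2 and 3.

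**Figure D2:**
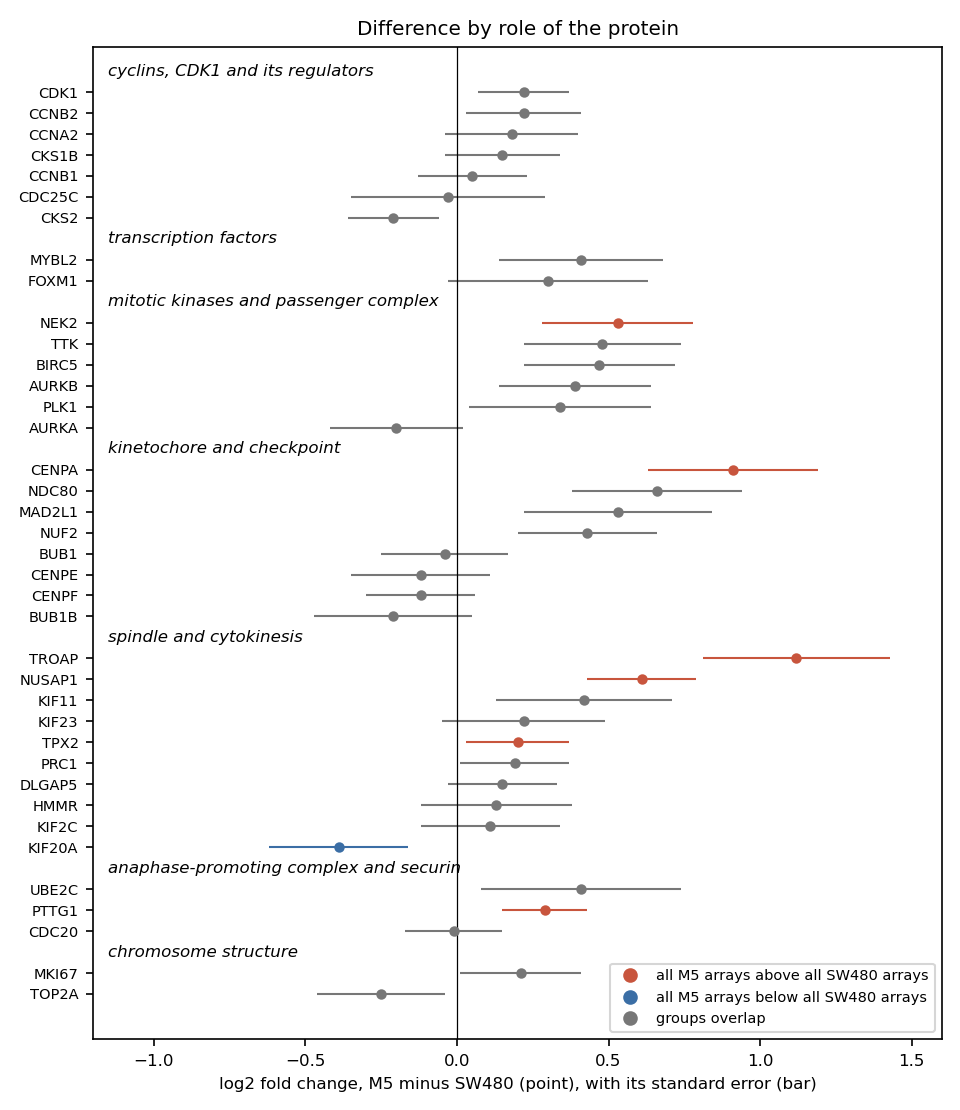
Log2 fold change of each member, M5 minus SW480 (horizontal axis, points) with its standard error (bars), ordered by role of the protein (vertical axis). Red and blue points are genes whose 3 M5 signals all lie above or all lie below the 3 SW480 signals. Most points lie to the right of 0, and KIF20A at -0.39 is the lowest.

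**Figure D3:**
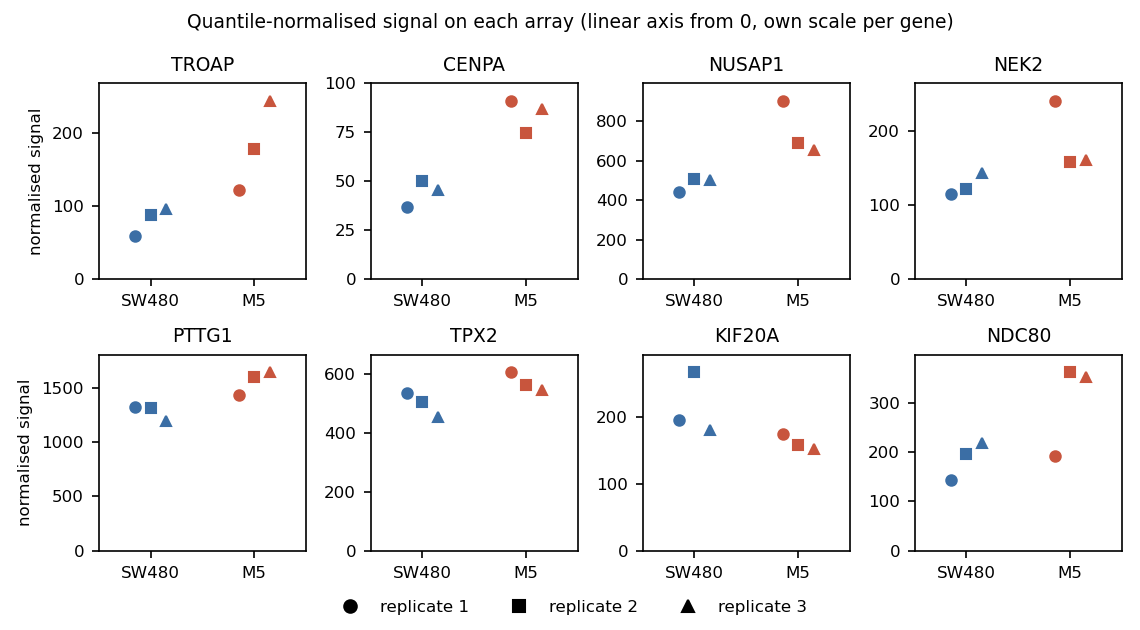
Quantile-normalised signal on each array (vertical axis, linear and starting at 0, with its own scale for each gene) for the 7 members whose groups do not overlap and for NDC80. Marker shape gives the replicate number of the labels. M5 replicate 1 is the highest array for CENPA, NUSAP1, NEK2 and TPX2, and M5 replicate 3 for TROAP and PTTG1.

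Several probe sets of a gene gave a check on direction within the arrays. Of the 72 probe sets of the members, 8 were left out as too dim, and of the 64 kept, 46 (71.9%) had a positive fold change, against 49.2% of all kept probe sets. Of 17 members with more than 1 kept probe set, all kept probe sets agreed in direction for 10 members, and for the other 7 (CDK1, CCNA2, CCNB1, CDC25C, BUB1, MKI67 and TOP2A) they did not. The other 21 members rest on 1 kept probe set each. None of the 64 probe sets passed the limma threshold. Probe sets of 1 gene share the same RNA and are not replicates.

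The dimmer pair and the 4 other arrays share no array, and they gave the difference separately. The median log2 difference of the members was 0.23 on the dimmer pair and 0.2 on replicates 2 and 3. Both differences were positive for 24 of 38 members (63.2%), against 25.6% of all genes tested, and both were negative for 3 (KIF20A, CENPE and BUB1). CKS1B did not differ on the dimmer pair, where both arrays read 1373. CENPA differed by 1.27 and 0.74, NUSAP1 by 1.03 and 0.4, NEK2 by 1.04 and 0.27, and TROAP by 1.03 and 1.17 on the dimmer and the other arrays. The agreement in sign did not extend to 7 members that were higher in M5 on the dimmer pair and lower on the other arrays, among them BUB1B (0.56 and -0.59), AURKA (0.31 and -0.45), TOP2A (0.19 and -0.48) and CKS2 (0.08 and -0.36). UBE2C and AURKB ran the other way, at -0.09 and 0.65 and at -0.06 and 0.62. Within the arrays of high 18S control the members' median was 0.14 and within those of low 18S control it was 0.28, each with 28 positive members. On all 4 of these sets of arrays, which overlap each other, 19 members (50%) were positive, against 19.3% of all genes. The members are transcribed together and were read on the same arrays, so they are not independent of each other and are not replicates. The part of array brightness and of the 18S control in the differences of single members was not tested.

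**Figure D4:**
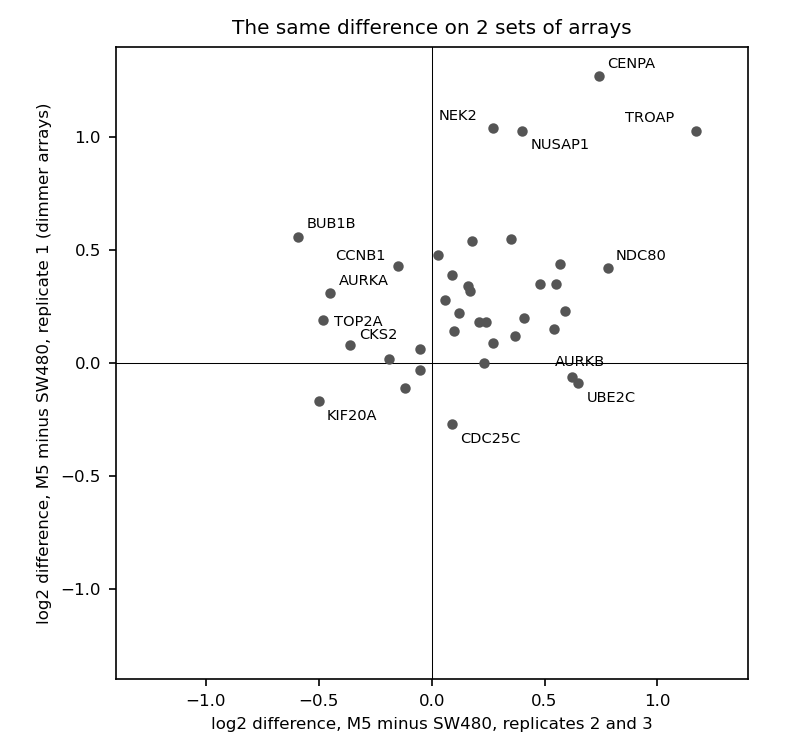
Log2 difference, M5 minus SW480, on replicates 2 and 3 (horizontal axis) and on replicate 1, the dimmer pair (vertical axis), for the 38 members. Each point is a gene. The area where both differences are positive holds 24 genes, with CENPA, TROAP, NUSAP1 and NEK2 highest, and BUB1B and AURKA lie in the upper left.

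Without the dimmer pair, limma called 3 members higher in M5 and 0 lower, where it called 4.34% of all genes higher and 5.41% lower. They were TROAP (log2 fold change 1.19, limma adjusted p = 0.015), NDC80 (0.79, adjusted p = 0.023) and BIRC5 (0.59, adjusted p = 0.0309). Other probe sets of TROAP and BIRC5 did not all share these values. On replicates 2 and 3, normalised with all 6 arrays, the other TROAP probe set differed by -0.05. The other BIRC5 probe sets differed by -0.14, 0.15 and 1.25. NDC80 has 1 probe set. Whether the share of members called exceeds the background was not tested. With M5 replicates 2 and 3 averaged as well, which leaves SW480 replicates 2 and 3 as the only measure of spread and assumes that the lone M5 sample varies like them, 0 members were called and the lowest limma adjusted p was 0.128, where 0.685% of genes were higher and 1% lower.

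Other genes of mitosis and of the phases before it were read from 8 further lists with 154 genes tested, and 0 of them passed the limma threshold in either direction. At an unadjusted p under 0.05, limma gave 11 of them with higher and 5 with lower signals in M5, beside backgrounds of 5.43% and 6.12% of all genes. In the list of other mitotic kinases, phosphatases and their partners the median log2 fold change was 0.41 over 16 measured genes, 13 of them positive, from -0.55 (CDC25A, a CDK phosphatase) to 0.74 (GTSE1, a G2 and S phase protein). For other kinetochore and centromere proteins it was 0.2 over 28 genes, 20 of them positive, from -0.68 (CENPI) to 0.87 (CENPH), both subunits of the inner kinetochore. For other spindle, motor and cytokinesis proteins it was 0.13 over 25 genes, 21 of them positive, from -0.39 (HAUS6) to 0.65 (HAUS1), both of the augmin complex that nucleates microtubules within the spindle. In each of these lists most genes had a positive fold change, as among the 38 members, and none was called. On replicates 2 and 3, 15 of 28 kinetochore and centromere genes and 14 of 25 spindle, motor and cytokinesis genes were positive. On the dimmer pair these counts were 18 and 22. In the kinase list 13 of 16 were positive on both sets of arrays. Among the members the counts were 28 of 38 on replicates 2 and 3 and 31 on the dimmer pair.

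Other lists had medians nearer to that of all genes, apart from the G1 inhibitors. The spindle checkpoint and anaphase-promoting complex list had a median of 0.08 over 20 genes, 11 of them positive, from -0.75 (CDC26) to 0.62 (ANAPC11), both subunits of the complex. Condensin, cohesin and separase genes had 0.04 over 19 genes, 10 of them positive, from -0.34 (WAPL, which releases cohesin) to 0.47 (SMC3, a cohesin subunit). DREAM and MuvB components and E2F partners had 0.08 over 13 genes, 7 of them positive. The lowest among them was RBL2, the pocket protein p130 of the DREAM complex, with signals of 88.2, 139 and 231 for SW480 against 93.2, 66.0 and 63.6 for M5, and a log2 fold change of -0.94 ± 0.35 (SE, adjusted p = 0.415 in limma). RBL1, its relative p107, was the highest at 0.49 (SE 0.41). The G1 inhibitors of CDKs had a median of 0.32 over 6 genes, from -0.58 (CDKN2B) to 1.3 (CDKN2D), both encoding inhibitors of the CDK4 and CDK6 kinases.

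Genes of DNA replication and S phase, the phase before G2, had a median of 0.08 over 27 measured genes, 17 of them positive, against 0.21 for the 38 G2/M members. The values ran from -0.46 (CDC6, a replication licensing factor) to 1.09 (E2F1, a transcription factor of S phase entry, SE 0.37, limma adjusted p = 0.39). Whether the G2/M and S-phase lists differed from each other was not tested. On SW480 replicate 1 the S-phase list had a centred median of -0.31, close to the -0.3 of the members, while on M5 replicates 2 and 3 it was 0.06 and 0.05 against 0.17 and 0.12 for the members. On SW480 replicate 2 it was 0.26, its highest on any array, against -0.02 for the members. On SW480 replicate 3 and M5 replicate 1 it was -0.03 and 0.04, against -0.04 and 0. Of the 27 S-phase genes, 21 were positive on the dimmer pair (median 0.31) and 14 on replicates 2 and 3 (median 0.02).

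**Figure D5:**
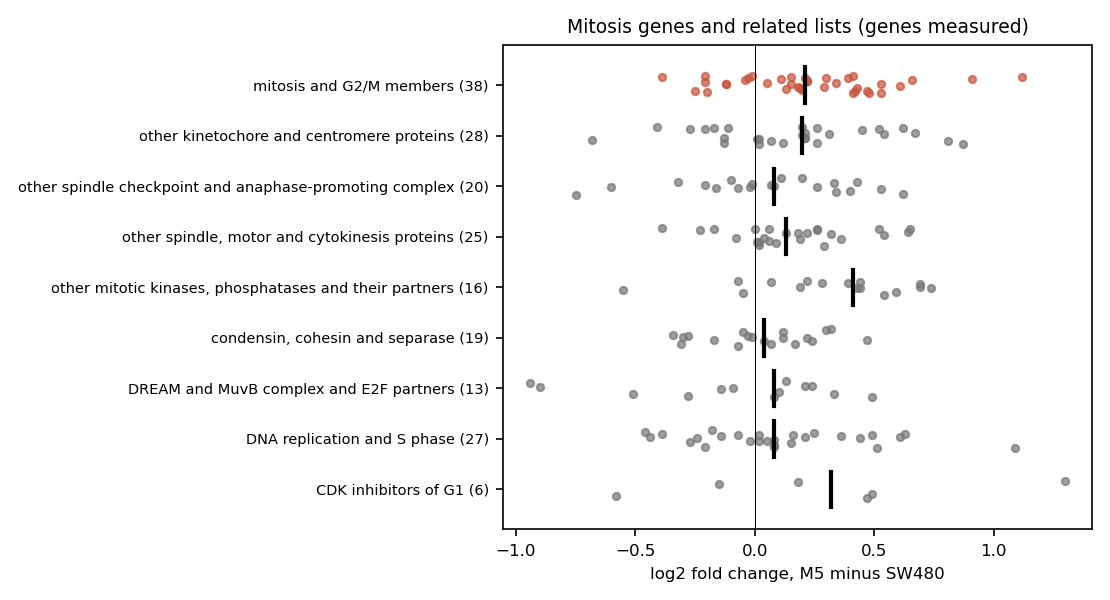
Log2 fold change, M5 minus SW480 (horizontal axis), of each gene in the 38 members and in 8 related lists (vertical axis, with the number of genes measured). Points are genes and black bars are list medians. The medians run from 0.04 for condensin, cohesin and separase to 0.41 for other mitotic kinases, phosphatases and their partners.

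Members with TTTGAA or TTCGAA in the promoter searched had a median log2 fold change of 0.21 (21 genes, 15 positive, -0.25 to 0.91). Those with a promoter sequence but no match had 0.14 (10 genes, 7 positive, -0.39 to 0.53). Among the stretches printed above, those of CENPA and NUSAP1, with fold changes of 0.91 and 0.61, hold TTTGAA. Those of NEK2, PTTG1 and KIF20A, with 0.53, 0.29 and -0.39, hold neither sequence. The ranges with and without a match overlapped, and whether the medians differ was not tested.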

How the data were processed

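Total RNA of 3 SW480 and 3 M5 samples was measured on Affymetrix U133 Plus 2.0 arrays. The authors deposited a linear intensity for each probe set, which GCOS 1.4 produced per the submitters' processing notes. The labels state neither its settings nor a build. The table has no detection calls. Of 54675 probe sets, 62 controls were left out of the tests. Arrays were quantile normalised, log2(signal + 1.7) was taken (the 20th percentile of all values), and probe sets in the lowest 40% by mean were dropped, leaving 32768. M5 was compared with SW480 in limma 3.58.1 (R 4.3.3; lmFit, eBayes with an intensity trend), two-sided, with Benjamini-Hochberg adjustment over all kept probe sets and a threshold of 0.05. Log2 differences understate changes of low signals. P-values measure only the spread between these arrays, whose number limits the precision.

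Genes are named from probe sets with 1 symbol in the platform annotation. Of the symbols listed for the related genes and markers, 9 had no such probe set. Array by array signals are given for members whose groups do not overlap, the 4 largest and 4 smallest fold changes, and 9 genes taken in any case (CCNB1, CDK1, PLK1, AURKB, CDC20, FOXM1, MYBL2, MKI67 and TOP2A), and for others chosen after their values were seen. From related lists the largest and the smallest fold change are named. The members and lists were chosen with earlier results of these data known. Sequences are from RefSeq. The model was checked on simulated data with noise drawn independently for each array. That check does not cover the likeness of M5 replicates 2 and 3. Figures were drawn with matplotlib 3.10.9.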

Additional observations from a re-analysis of the deposited data

How the results depend on the processing

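The results were recomputed under 21 alternatives. The count of members higher in M5 was 3 without the dimmer pair and 1 (TROAP) with array weights, and 0 under every other alternative; no member was lower under any. The median fold change of the members, 0.21, was 0.36 with no scaling between arrays, where the median of all genes was 0.07, and lay between 0.13 and 0.3 when 1 array was left out in turn. Members with a positive fold change numbered 24 to 32. Of the related genes, 18 were called without the dimmer pair and 10 with array weights. Between 0 and 1 were called when 1 array was left out (VRK1, without M5 replicate 1). Of all genes tested, limma called 4.34% higher and 5.41% lower without the dimmer pair. With array weights it called 3.13% and 4.15%, and without M5 replicate 1 it called 0.605% and 0.78%. Whether the members or the related genes exceed these shares was not tested. The replicate block, with the labels' replicate numbers, called 0 members and gave a lowest limma adjusted p of 0.185 and the same median of 0.21. Deviations of equal numbers correlated at 0.11, 0.02 and 0.07, so the numbers as a set did not clearly pair the arrays. Over bright probe sets, however, SW480 replicate 1 was closer to M5 replicate 1 (correlation 0.955) than to the other SW480 arrays (0.911 each). A block for the dimmer pair called 0 members, with a lowest limma adjusted p of 0.0859 (TROAP). It called 0.218% of all genes higher and 0.119% lower.

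Of the 19 members described under the naming rule, 14 kept their direction under all 21 alternatives. CCNB1 turned to -0.09 with the mean of all kept probe sets, -0.15 without the dimmer pair (also with M5 replicates 2 and 3 averaged), -0.06 with array weights, and from -0.09 (without SW480 replicate 1) to 0.2 (without SW480 replicate 2) when 1 array was left out, with -0.01 without M5 replicate 1. CDC20 was 0.18 with no scaling, 0.06 with arrays centred on the median, 0 without SW480 replicate 2, and from -0.05 (without SW480 replicate 1) to 0.01 (without SW480 replicate 3 or M5 replicate 2) over the arrays left out in turn. CKS2 was 0.07 with no scaling, MKI67 -0.02 with the mean of all kept probe sets, and FOXM1 from 0 (without SW480 replicate 1) to 0.54 (without SW480 replicate 2). For these turns the cause was not tested. Without detection calls, how far the dimmest members lay above background is unknown.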
